A study of Mus musculus with 9 samples.

Results

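The 76 genes described here encode proteins of the cytosolic ribosome. They are the protein-coding genes on chromosomes 1 to 19 whose symbol is Rpl or Rps with a number and at most an a, l or x behind it, together with Rplp0, Rplp1, Rplp2 and Rpsa. Rps6 kinase genes and Rpl10l, whose symbol also matched, were left out, and the set makes up 76 of the 20665 protein-coding genes of these chromosomes in RefSeq. The rule uses symbols and positions and no measured value, although the set was chosen with earlier results of these data known. Of the 76, 46 belong to the large subunit and 30 to the small subunit. They lay on 18 chromosomes, with 14 on chromosome 7, and were short, with a median length of 3.21 kb against 17.5 kb for all genes.

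The assay was ATAC-seq, which reads out accessible DNA through the cuts of a transposase. The cells were dendritic cells raised from the marrow of C57Bl/6 mice over 9 days with GM-CSF at 20 ng/mL. All cells were infected with a retrovirus on day 2 and sorted for CD11c and for human CD8, the reporter that every vector carries. OE cells overexpressed Pcgf6 and had the mi8 vector as their control, while HP109 cells carried a hairpin RNA against Pcgf6 and had LMP8 as theirs. Each vector had 2 libraries, and a single input library brought the total to 9. The authors deposited 1 peak list per vector, attached to both of its libraries, so the lists hold no replicate spread and no test between vectors was run. The sources used here do not give the animals, pools or infections behind a library, and a peak list holds no transcript level by which the change in Pcgf6 could be checked. On chromosomes 1 to 19 the lists held 108506 peaks for OE, 166407 for mi8, 165515 for HP109 and 137072 for LMP8.

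Ribosomal protein genes are transcribed in nearly all cells at high and matched rates, because each ribosome holds a single copy of almost every protein. In mammals their start sites typically lie in a run of C and T bases, the TCT initiator, in place of the commoner initiator and often without a TATA box, and the transcripts carry the terminal oligopyrimidine tract through which mTOR controls their translation. Resting dendritic cells raise protein synthesis when they are activated. Pcgf6 is the defining subunit of a Polycomb complex that also holds E2f6, Max and Mga, which recognise E2F sites and E-boxes.

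Promoter sequences are shown for the 3 best-ranked genes with an entry in the RefSeq promoter table, because these had the strongest peaks relative to other genes, and for 3 of the 5 lowest-ranked genes. Each runs from 250 bases before the annotated start to 30 bases from the start on, on the plus strand of GRCm38.p6, the assembly of mm10. Capitals mark the run of C and T bases that spans the start and matches, on either strand, to the motifs named further on. Rps21 (chr2:180257129-180257408), Rpl37 (chr15:5116363-5116642) and Rpl27a (chr7:109518945-109519224) encode proteins of the small, the large and the large subunit.
Rps21: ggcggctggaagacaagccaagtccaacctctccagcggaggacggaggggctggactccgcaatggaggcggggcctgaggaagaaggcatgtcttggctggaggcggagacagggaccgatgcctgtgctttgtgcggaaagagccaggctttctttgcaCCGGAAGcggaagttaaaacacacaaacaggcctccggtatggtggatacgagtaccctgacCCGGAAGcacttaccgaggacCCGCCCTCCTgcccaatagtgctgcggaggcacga
Rpl37: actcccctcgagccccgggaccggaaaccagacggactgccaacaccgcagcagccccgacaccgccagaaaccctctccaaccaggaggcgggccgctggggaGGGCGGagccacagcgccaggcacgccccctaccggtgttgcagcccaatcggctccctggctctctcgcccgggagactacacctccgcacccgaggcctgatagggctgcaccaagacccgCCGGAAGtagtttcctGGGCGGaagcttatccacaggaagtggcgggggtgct
Rpl27a: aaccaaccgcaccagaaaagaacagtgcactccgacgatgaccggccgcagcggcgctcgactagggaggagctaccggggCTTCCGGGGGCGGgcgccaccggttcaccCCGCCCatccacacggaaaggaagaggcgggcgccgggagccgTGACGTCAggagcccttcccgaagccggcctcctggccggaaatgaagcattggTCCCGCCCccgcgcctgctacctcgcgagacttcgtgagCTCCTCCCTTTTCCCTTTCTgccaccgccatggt
The run over the start covers 20 bases in Rpl27a and 7 in Rps21, while the annotated first base of Rpl37 is neither C nor T. All 3 promoters hold CCGGAAG, the core site of ETS factors, on 1 of the strands.
Rps2 (chr17:24719813-24720092), Rps27l (chr9:66945836-66946115) and Rpl32l (chr10:20208189-20208468) had no peak, or a peak in a single list, in the windows at the gene ends.
Rps2: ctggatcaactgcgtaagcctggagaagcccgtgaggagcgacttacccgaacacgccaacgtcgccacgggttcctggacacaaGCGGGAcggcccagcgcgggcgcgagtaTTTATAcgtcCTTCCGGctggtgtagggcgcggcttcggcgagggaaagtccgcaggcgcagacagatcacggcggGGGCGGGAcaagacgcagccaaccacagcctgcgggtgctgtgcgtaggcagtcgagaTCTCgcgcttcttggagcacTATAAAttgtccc
Rps27l: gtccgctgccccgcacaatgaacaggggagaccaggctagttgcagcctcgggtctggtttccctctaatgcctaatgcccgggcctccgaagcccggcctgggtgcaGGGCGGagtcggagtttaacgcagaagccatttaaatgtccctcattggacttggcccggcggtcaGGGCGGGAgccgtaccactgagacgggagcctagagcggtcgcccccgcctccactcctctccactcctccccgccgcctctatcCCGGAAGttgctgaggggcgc
Rpl32l: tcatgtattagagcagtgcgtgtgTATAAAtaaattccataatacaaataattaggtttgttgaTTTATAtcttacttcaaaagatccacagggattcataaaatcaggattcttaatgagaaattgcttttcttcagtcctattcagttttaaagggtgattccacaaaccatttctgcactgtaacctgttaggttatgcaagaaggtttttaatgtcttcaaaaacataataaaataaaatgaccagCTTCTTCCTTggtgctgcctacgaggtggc
The run covers 4 bases in Rps2 and 10 in Rpl32l, and the annotated first base of Rps27l is neither C nor T. Rpl32l and Rps2 each hold a pair of TATAAA matches. Rpl32l has no ETS, Sp1 or E2F match, whereas Rps2 and Rps27l hold all 3 of these.

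Nearly every ribosomal protein gene had open chromatin at a gene end whichever vector the cells carried. A peak within 1000 bp of either end was present at 72 of 76 genes in OE (94.7%) and 73 in mi8 (96.1%), and at 72 each in HP109 and LMP8 (94.7%). Over all 20665 genes, which include genes that dendritic cells do not use, the shares were 59.9% in OE, 66.6% in mi8, 66.1% in HP109 and 64.1% in LMP8. The same 72 genes had an end peak in each of the 4 lists. Rps2, Rps27l and Rpl39l had none in any list, and Rpl32l had one in mi8 alone. At 27 of the 76 genes another protein-coding gene ends or starts within the same windows, and 11 are shorter than both windows together, so a peak cannot always be given to 1 end or 1 gene.

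By their medians, the peaks were stronger and wider than those of all genes with an end peak in the same list. Strength is given as the −log10 q or the fold over background of the strongest end peak. These are the authors' own values, used here only within a list because they grow with depth. Among genes with an end peak, the median −log10 q was 67.8 for ribosomal protein genes and 57.1 for all genes in OE, 75.4 and 63.9 in mi8, 83.9 and 67.6 in HP109, and 47.1 and 40.4 in LMP8. The median width was 782 bp against 663 bp in OE, 938 against 775 bp in mi8, 815 against 684 bp in HP109, and 851 against 721 bp in LMP8. The ribosomal protein genes ranged widely, from 8.91 to 147 in OE, 6.89 to 139 in mi8, 20.3 to 150 in HP109 and 9.61 to 78.3 in LMP8. Their median fold was 18.3 in OE, 20.3 in mi8, 24.3 in HP109 and 16.8 in LMP8.

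**Figure D1:**
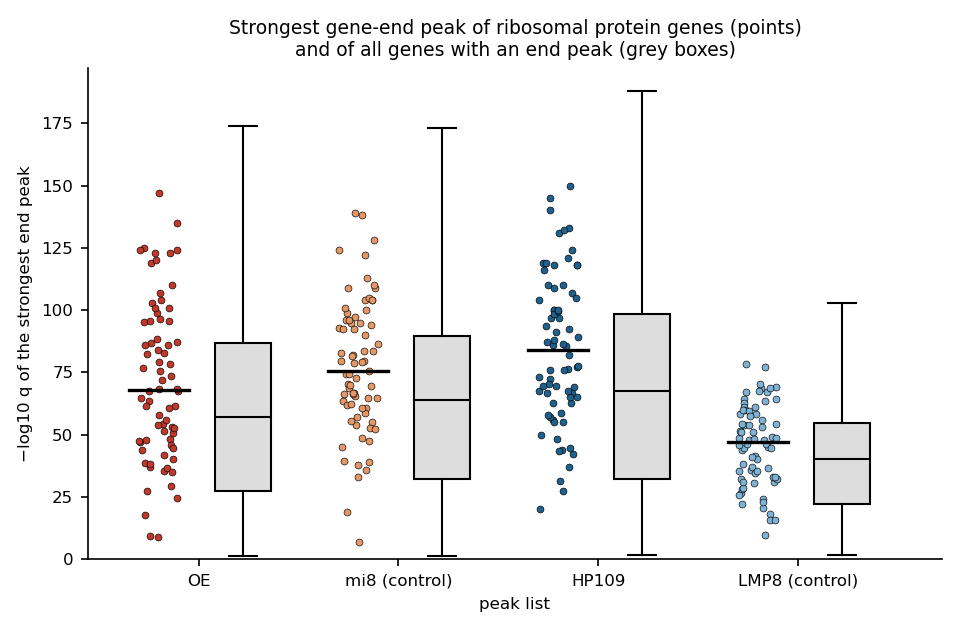
Strength (−log10 q, linear axis) of the strongest gene-end peak in each of the 4 lists. Points are ribosomal protein genes with an end peak and the thick bar is their median; grey boxes show the quartiles of all genes with an end peak, with whiskers over the range without outlying values. In each list the bar lies above the middle line of the box, at 67.8 against 57.1 in OE, and the highest whisker lies above every point.

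To compare lists, each gene was placed by the percentage of all 20665 genes with a weaker strongest end peak in the same list, a gene without a peak counting as 0. The median percentile of the 76 genes was 74.9 in OE, 73.3 in mi8, 71.9 in HP109 and 74.0 in LMP8. Above the median gene in all 4 lists stood 67 of the 76, and 8 stood in the top 10% of all 4. The same counts over all genes were not made. Because genes without a peak count as 0, the median gene is weak, with a −log10 q of 17.2 in OE. Of the 12375 genes with an end peak in OE, 10327 stood above it. The count of 67 therefore largely restates how many genes had a peak. The top 10% of a list held 16 of the 76 in OE, 14 in mi8, 14 in HP109 and 13 in LMP8, beside 2051, 2063, 2065 and 2014 of all 20665 genes.

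Rps21, a small-subunit protein, had the highest mean percentile, 98.80. Its strongest peak reached a −log10 q of 147 in OE, 128 in mi8, 150 in HP109 and 78.3 in LMP8, and it was the highest of the 76 genes in every list but mi8. Rpl37, at 98.20, had 124 in OE, 139 in mi8, 145 in HP109 and 77.0 in LMP8. Rpl30, whose protein also binds its own transcript in yeast, followed with 125, 138, 133 and 68.6 in the same order of lists, Rpl27a with 135, 124, 131 and 64.2, and Rps19 with 119, 122, 116 and 69.3. The order of the first 5 genes thus changed from list to list, while all 5 stayed near the top.

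**Figure D2:**
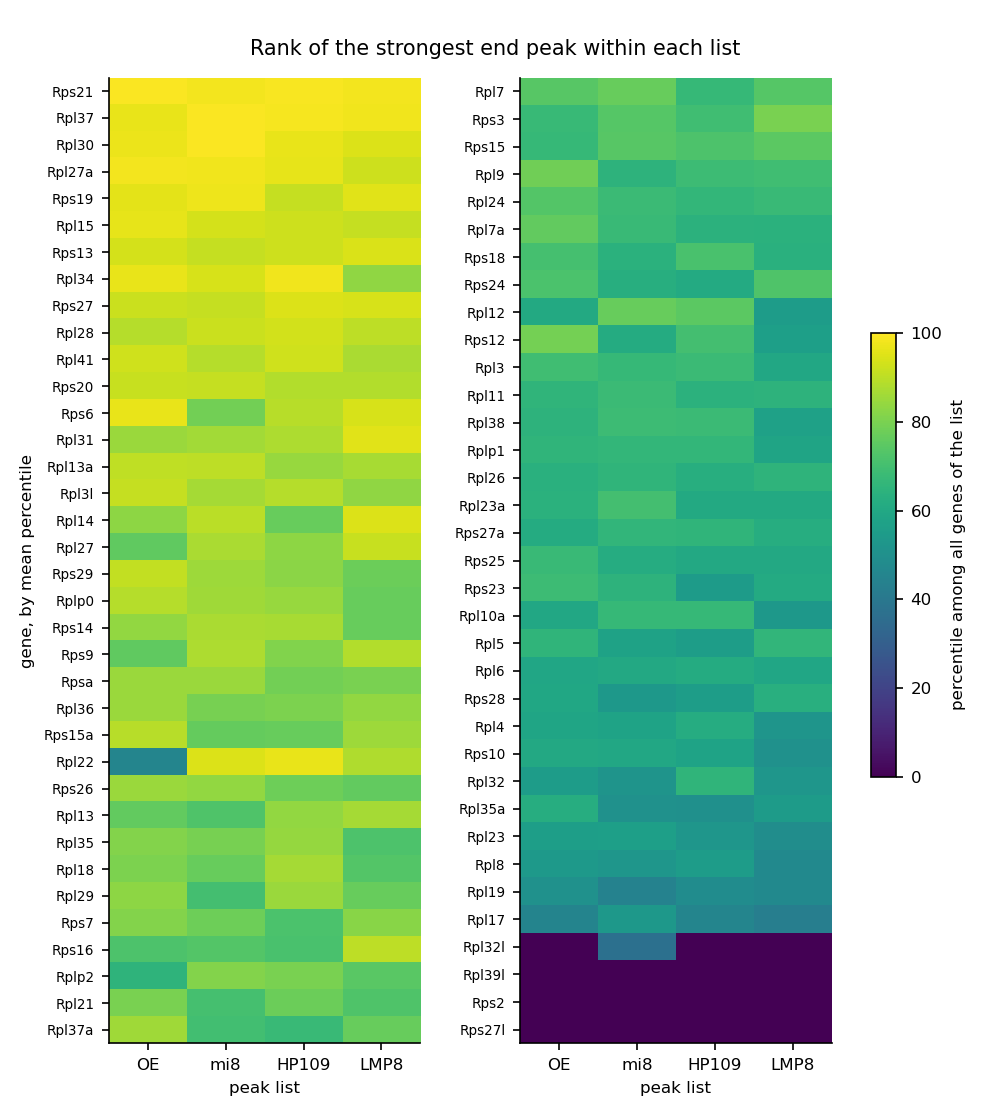
Percentile of the strongest end peak among all 20665 genes of the same list, by colour, for 71 of the 76 genes (rows, ordered by their mean over the lists, from top left to bottom right) and each list (columns). The 5 genes at the top left, from Rps21 to Rps19, are bright in all 4 columns. Rpl22 is dark in OE only, and the last 4 rows are at 0 apart from Rpl32l in mi8.

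The lowest ranks included a paralog of restricted use, Rpl39l, the short gene Rpl32l, and genes whose strong peak lay outside the window. Rpl39l encodes a paralog of Rpl39 made in male germ cells and had no peak at its ends in any list. Rpl32l is an annotated gene of 0.592 kb, the shortest of the set, and its mi8 peak (chromosome 10, 20208549 to 20208649) had a summit pileup of 15 reads, a fold of 5.07 and a −log10 q of 6.89. Rpl3l, the paralog of Rpl3 known from striated muscle, ranked high through a peak at its far end, where Msrb1 lies within the window. That peak reached a −log10 q of 101 in OE, 94.9 in mi8, 110 in HP109 and 54.1 in LMP8, while none of the lists had a peak at the annotated start of Rpl3l.

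Rps2 and Rps27l had no end peak and yet had strong peaks at the start given by the promoter table, which lies inside the gene span of the gene table. At Rps2, whose protein lines the entry of the messenger RNA channel, the peak at the start had a −log10 q of 67.2 in OE, 58.2 in mi8, 57.9 in HP109 and 40.2 in LMP8. Its summit lay 10 bp after the start in OE, against 111 bp before it in mi8, and 116 bp before it in HP109, against 41 bp in LMP8. At Rps27l, a paralog of Rps27 known as a target of p53, the values were 74.6 in OE, 77.1 in mi8, 106 in HP109 and 61.2 in LMP8. This Rps27l peak began 144 bp past the window in OE, 41 bp in mi8, 142 bp in HP109 and 32 bp in LMP8. Rpl17, which has no entry in the promoter table, had an end peak in all 4 lists, but its stronger peak also lay outside the end windows. This peak inside the span (from 75000201 on chromosome 18 in OE) had 46.2 in OE, 83.4 in mi8, 86.4 in HP109 and 50.8 in LMP8. The peak near the right gene end, which gave Rpl17 its rank, had 8.91, 39.4, 20.3 and 9.61.

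Rpl22, singled out after its values were seen, shows how the window edge acts. Its strongest end peak had a −log10 q of 9.46 in OE, against 113 in mi8, and 132 in HP109, against 59.3 in LMP8. The large OE peak (chromosome 4, 152325442 to 152326338) began 6 bp past the window and had 112, with a summit pileup of 92 reads. The mi8 peak at the same place also had a pileup of 92 reads and reached 111 bp into the window. The Rpl22 site was therefore as high in OE as in mi8, and its low rank in OE reflects where the peak begins.

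Large- and small-subunit genes had similar peaks. The median −log10 q of large-subunit genes was 67.8 in OE, 70.2 in mi8, 83.9 in HP109 and 44.9 in LMP8, and that of small-subunit genes was 70.5, 80.1, 81.7 and 50.1 in the same order. Neither subunit was above the other in all 4 lists. Of the stalk genes, Rplp0, the scaffold, had 95.7 in OE, 93 in mi8, 100 in HP109 and 48.6 in LMP8. Rplp1 and Rplp2, the acidic proteins that recruit elongation factors, lay lower. Rplp1 had 47.9 in OE, 63.4 in mi8, 66.5 in HP109 and 30.5 in LMP8. Rplp2 had 47.2 in OE, 86.3 in mi8, 91.2 in HP109 and 46.1 in LMP8, and was the stalk gene whose rank differed most between OE and mi8.

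The 10 genes of the set taken as mutated in human Diamond-Blackfan anaemia, a failure of red cell production, all had an end peak in all 4 lists. Their median percentile was 68.6 in OE, 64.1 in mi8, 61.7 in HP109 and 67.4 in LMP8, a little below that of the 76. Rps19, the gene most often mutated, led them with the values given above. Rps7 had a −log10 q of 78.4, 81.4, 77.0 and 53.1 in OE, mi8, HP109 and LMP8. Rps26 was close to it, with 86.1 in OE, 87.8 in HP109 and 47.7 in LMP8. Rps24 had 60.5, 57.0, 55.9 and 44.6, and Rpl26, which binds the p53 transcript in human cells, had 43.9, 61.9, 58.8 and 36.8. Rpl5 and Rpl11, which together with the ribosomal 5S RNA restrain Mdm2 and so stabilise p53, had the following values. Rpl5 had 47.4 in OE, 47.6 in mi8, 44.0 in HP109 and 38.0 in LMP8, and Rpl11 had 48.4, 66.2, 62.5 and 36.7. Rps10 (38.0, 52.1, 49.8 and 20.5) and Rpl35a (41.8, 33.0, 31.4 and 25.7) had the lowest mean percentiles of the 10.

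Several genes carried more than 1 peak in their windows. The 76 genes had 129 end peaks in OE, 140 in mi8, 162 in HP109 and 140 in LMP8, or 1.70, 1.84, 2.13 and 1.84 per gene, against 1.0, 1.24, 1.28 and 1.17 over all genes. Both means include genes without an end peak. Such genes were more frequent over all genes, so this contrast largely restates how many genes had a peak. The 129 peaks in OE lay at 72 genes, 140 in mi8 at 73, 162 in HP109 at 72 and 140 in LMP8 at 72. Over all genes, 20768 peaks lay at 12375 genes in OE and 25676 at 13758 in mi8. In HP109 there were 26435 at 13660 and in LMP8 24147 at 13247. The highest count at 1 gene was 5 in HP109, reached among others by Rps13 and Rpl12. In OE, mi8 and LMP8, Rps13 had 2, 4 and 4 end peaks and Rpl12 had 1, 4 and 3. The Rpl12 counts in mi8 and HP109 include a peak that only just reaches the window. At the same place OE and LMP8 had a peak of 56 and 47 reads that stayed outside the window. In OE the highest count was 4, at Rpl41, which encodes the smallest ribosomal protein, Rpl24 and Rps18. Whether these are separate sites or pieces of 1 broad site was not tested.

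Accessible summits lay just before the annotated start. The RefSeq promoter table gives a start for 56 of the 76 genes and for 16457 of all genes. Among those without an entry are Rpl7, Rps20, Rpl21, Rpl32, Rplp1, Rpl29, Rps27a, Rpl23a, Rps29, Rpl30, Rpl8, Rpl3, Rpl36, Rps14 and Rpl17. A peak within 1000 bp of the start was present at 52 of the 56 in OE (92.9%), 54 in mi8 (96.4%), 53 in HP109 (94.6%) and 53 in LMP8 (94.6%), against 58.6, 64.4, 63.7 and 62.4% of all genes. The genes without one were Rpl39l and Rpl3l in all 4 lists, Rpl32l in OE, HP109 and LMP8, and Rpl22 in OE. The median summit of the strongest such peak lay at −45 bp in OE, −44 bp in mi8, −46 bp in HP109 and −36 bp in LMP8, with negative values upstream, against −38, −35, −36 and −33 bp for all genes.

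The summits of ribosomal protein genes were also less scattered. Within the window from 250 bases before to 50 after the start lay 90.4% of their summits in OE, 83.3% in mi8, 84.9% in HP109 and 84.9% in LMP8. For all genes the shares were 66.1, 63.0, 63.5 and 62.2%. Rplp2 had its summit at −9 bp in OE, 0 bp in mi8, −26 bp in HP109 and −80 bp in LMP8. Exceptions beyond 250 bp in all 4 lists were Rpl4, with summits from −606 to −513 bp, Rps26, with −341 to −330 bp, and Rpl19, with 259 to 275 bp. Rpl4 has Zwilch and Snapc5 within its end windows. At Rpl19 the peak at the start had a −log10 q of 13.5 in OE, 8.59 in mi8, 20.6 in HP109 and 10.7 in LMP8, while a peak at the left gene end had 17.8, 18.9, 27.4 and 15.5. Rpl38, whose protein is needed for the translation of Hox transcripts in mouse embryos, had its summit at −41 bp in OE, against 534 bp in mi8, and at 547 bp in HP109, against 537 bp in LMP8. In OE, mi8 and HP109 a single Rpl38 peak covered both positions. LMP8 had separate peaks there, with a −log10 q of 28.7 at −82 bp and 30.4 at 537 bp.

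**Figure D3:**
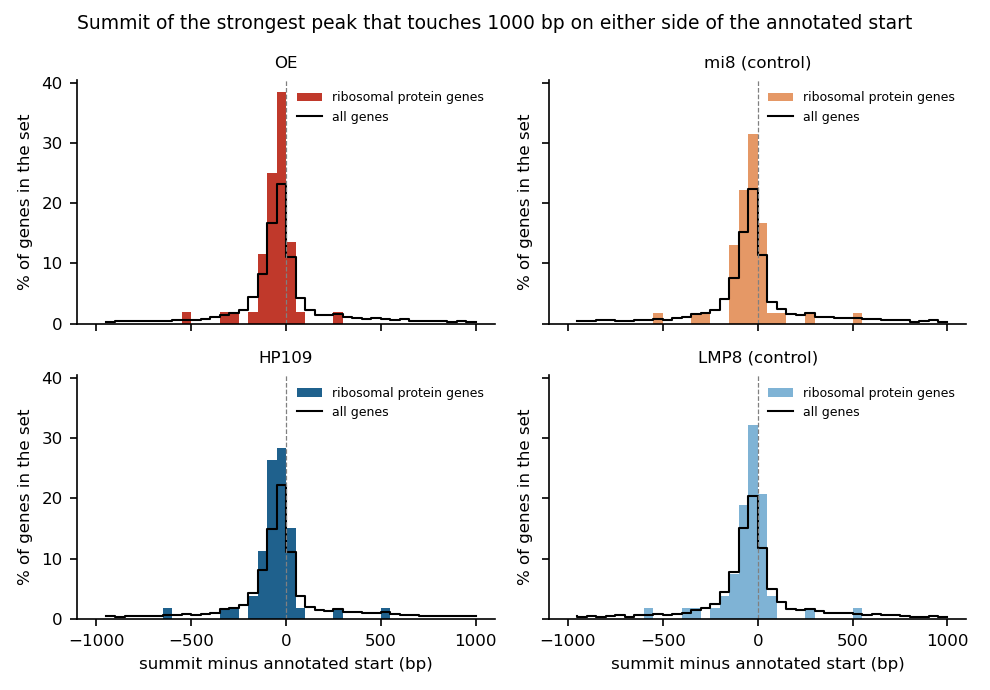
Position of the summit of the strongest peak that touches 1000 bp on either side of the annotated start, in bins of 50 bp, as a percentage of the genes with such a peak; negative positions are upstream. Bars show ribosomal protein genes and the black line all genes, with 1 panel per list. The tallest bars lie just upstream of the start in all panels and exceed the line; the 5 summits beyond 1000 bp, of Rpl22 and Rpl12, are outside the axis.

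The promoters shared sequence features. A start at a C was annotated for 35.7% of the 56 ribosomal protein genes, against 13.8% of 16457 genes. A run of at least 6 C or T bases spanned the start in 18 of them (32.1%), against 6.25% of all genes and 2.90% of 69 genes for mitochondrial ribosomal proteins. The longest runs were 21 bases in Rpl7a, 20 in Rpl27a, 18 in Rpl35 and 17 in Rpl15. The letters CTTT began within 5 bases of the start in 23.2%, against 4.64% of all genes, but exactly at the start only in Rpl38 and Rplp2 (3.57% against 0.322%). Annotated starts can be off by a few bases, and a run just beside the annotated base is missed by this measure.

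Further motifs were searched on both strands of the 300 bases. CCGGAAG, the ETS core, was present in 41.1% of the ribosomal protein promoters against 12.3% of all. AAGATGGCG, bound by YY1, was in 5.36% against 1.92%, at Rpl13a, Rpl35a and Rps27, and TGACGTCA, the CRE bound by Creb factors, in 8.93% against 2.40%, at Rpl13, Rpl18, Rpl26, Rpl27a and Rps9. The NRF1 motif was in 1.79% against 1.37%. GGGCGG, bound by Sp1, was in 55.4% against 47.3%, and TATAAA in 8.93% against 13.5%. The motifs of the partners of Pcgf6 were near the level of all promoters. TCCCGC, an E2F core that overlaps GGGCGG in GGGCGGGA and its reverse, was in 26.8% against 26.4%, and CACGTG, the E-box, in 8.93% against 7.97%, at Rpl13a, Rpl14, Rpl19, Rpl23 and Rpl34. The median GC content was 57.7% against 56.7%. These matches are letters in a window and not measured binding.

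**Figure D4:**
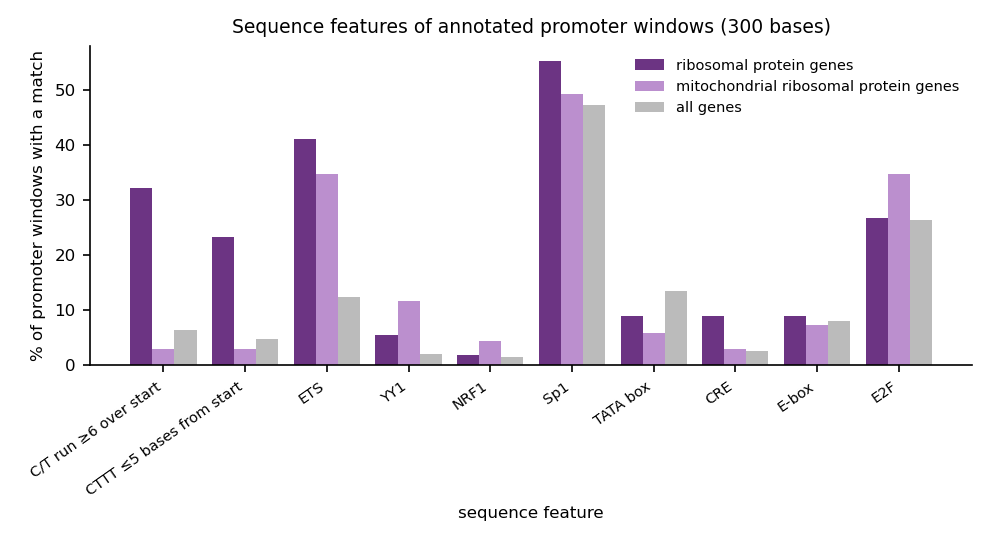
Percentage of annotated promoter windows (250 bases before to 50 after the start) with each sequence feature, for 56 ribosomal protein genes, 69 mitochondrial ribosomal protein genes and all 16457 genes with an entry. The C and T run over the start separates the ribosomal protein genes from both other sets, at 32.1% against 2.90 and 6.25%, while the ETS core is frequent in both ribosomal sets, at 41.1 and 34.8%, and the E2F core is at 26.8% against 26.4% of all genes.

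Peak rank was then set beside these features. The 18 genes with a run of at least 6 had a median mean percentile of 82.6, against 71.1 for the 38 without one. Their quartiles overlapped, at 67.3 and 90.7 with a run, against 61.3 and 82.0 without. The 31 genes with GGGCGG had 79.7, against 67.1 for the 25 without. Here too the quartiles overlapped, at 65.7 and 89.5 with the motif, against 61.1 and 80.6 without. Genes with the ETS core had 75.1 and those without it 74.9, and genes with TCCCGC had 76.7 and those without it 74.9. These are descriptions over genes of 1 set of lists, without a test, and the same genes can carry several features. The rank uses the strongest peak at either gene end, so it does not always describe the promoter. Rpl3l ranked by a peak at its far end, while Rps2 and Rps27l ranked at 0 despite peaks at their starts.

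With Pcgf6 overexpressed, the ribosomal protein genes kept their open gene ends. No gene was open at an end in OE but not in mi8, a state held by 0.194% of all genes. Only Rpl32l had the reverse, 1 of 76 (1.32%), against 6.89% of all genes. The OE list was shorter, with 108506 peaks against 166407 in mi8, so weaker peaks can be missing from it. With equal numbers of peaks, 0 of the 76 genes had this state, and the share of all genes was not counted again. A lower pileup in a mixed population does not tell fewer cells with an open site from less opening per cell.

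Signal was then compared at the same place. The pileup, the number of reads over the summit, was recovered from the deposited fold and p, and divided by the genome-wide background of its list, which was 2.0 reads in OE, 1.95 in mi8, 1.35 in HP109 and 1.42 in LMP8. For each gene the strongest merged region touching an end window was used. Such a region had a peak in all 4 lists at 72 of the 76 genes. The log2 ratio of OE over mi8 had a median of −0.08 at these 72 genes and −0.18 over 12381 genes. Relative to that median the ribosomal protein genes stood at 0.10, with quartiles of −0.05 and 0.22, 48 above and 24 below it. None of the 72 lay 2-fold above or below the median, as 0.0646% and 2.19% of all genes did. This 2-fold limit was chosen after the data were seen.

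Rps6, the protein phosphorylated by the S6 kinases, had the highest ratio. Its pileup was 100 reads in OE, against 81 in mi8, and 91 in HP109, against 59 in LMP8, so the log2 ratio of OE over mi8 was 0.26, or 0.45 relative to all genes. The site near the right gene end of Rpl17 had the lowest ratio, with 22 reads in OE, against 44 in mi8, a log2 ratio of −1.04, or −0.86 relative to all genes. Rpl17 had only 18 reads at this site in LMP8, too, and the larger peak inside its span had 62 reads in OE, against 75 in mi8. Rplp2 came next with 49 reads in OE, against 75 in mi8, a log2 ratio of −0.65. Its pileup was 71 in HP109 and 44 in LMP8. At Rps21 the pileup was 114 in OE, against 102 in mi8, and at Rpl37 it was 109 in OE, against 115 in mi8.

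**Figure D5:**
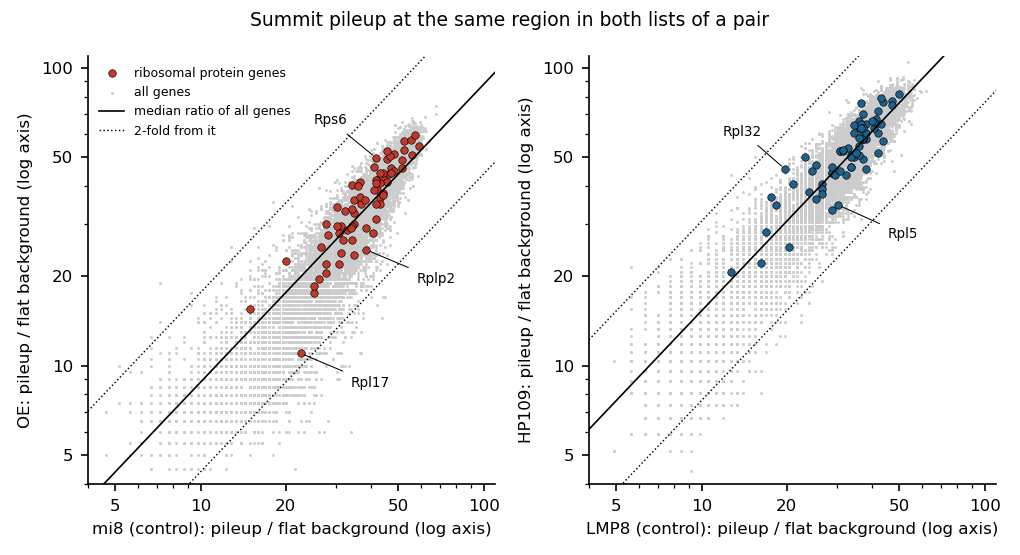
Summit pileup divided by the genome-wide background of the list, at the same merged region, for OE against mi8 (left) and HP109 against LMP8 (right), both axes logarithmic. Large points are the 72 ribosomal protein genes and small grey points all genes with a peak in both lists; the solid line is the median ratio of all genes and the dotted lines are 2-fold from it. All large points lie between the dotted lines, with Rpl17 nearest to the lower line at left and Rpl32 farthest above the solid line at right.

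With the hairpin against Pcgf6 the gene ends were open as well. No ribosomal protein gene was open at an end in HP109 but not in LMP8, against 2.75% of all genes, and none had the reverse, against 0.755%. At the same region the log2 ratio of HP109 over LMP8 had a median of 0.69 at the 72 genes and 0.61 over 13111 genes (quartiles 0.44 and 0.75), so the peaks of HP109 stood higher over background at most genes. Relative to all genes the ribosomal protein genes stood at 0.07, with 46 above and 26 below the median, and none lay 2-fold from it, as 0.0229% of all genes did above and 0.686% below. Rpl32, a large-subunit protein, had the highest ratio. Its pileup was 62 reads in HP109, against 28 in LMP8, a log2 ratio of 1.22, and 35 in OE, against 49 in mi8. No ratio was below the 0.20 of Rpl5, which had 47 reads in HP109 and 43 in LMP8.

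The spread between the controls gives a scale for these differences. LMP8 and mi8 differ in vector but carry no change to Pcgf6. No ribosomal protein gene was open at an end in LMP8 but not in mi8, against 0.523% of all genes, and Rpl32l alone had the reverse, against 3.0%. The log2 ratio of LMP8 over mi8 had a median of −0.22 at the 72 genes and −0.17 over all genes, so that they stood at −0.05 relative to all genes, with 27 above and 45 below. It ran from −0.84 at Rpl17 to 0.14 at Rps16, and none lay 2-fold above or below the median, against 0.129% and 0.0456% of all genes. The 3 comparisons share lists, and with 1 list per vector no ratio can be set against replicate error.

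Other genes of the translation machinery were mostly open at their ends too. Of 78 genes for mitochondrial ribosomal proteins, 75 had an end peak in OE, 76 in mi8, 76 in HP109 and 76 in LMP8, and their median percentile was 70.2, 67.3, 70.2 and 69.4. All 21 translation factors, such as Eef2 and Eif4e, had an end peak in all 4 lists, as did Fau and Rack1, which encode ribosomal proteins under other symbols, and Rpl36al, Rpl22l1 and Rpl7l1, whose longer suffix keeps them outside the rule. The translation factors ranked above the ribosomal protein genes, with a median percentile of 82.6 in OE, 81.4 in mi8, 85.4 in HP109 and 88.1 in LMP8. Their median peak width was larger too, at 1140 bp in OE, 1160 bp in mi8, 905 bp in HP109 and 1120 bp in LMP8. Of 25 ribosome biogenesis genes, 24 had an end peak in each list, and their median percentile was 77.5, 72.1, 75.4 and 74.4. The median width was 760, 858, 787 and 842 bp for biogenesis genes and 645, 780, 674 and 748 bp for mitochondrial ribosomal proteins. Relative to all genes, the log2 ratio of OE over mi8 had a median of 0.12 for mitochondrial ribosomal proteins, 0.13 for translation factors and 0.10 for biogenesis genes, next to 0.10 for the ribosomal protein genes. For HP109 over LMP8, translation factors stood at 0.05 and biogenesis genes at 0.07, and mitochondrial ribosomal proteins were divided, with 38 above and 38 below the median. Mrps23 was the only gene of these lists with a change of state, being open at an end in mi8 but not in OE.

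Pseudogenes of ribosomal proteins, taken by annotation and symbol, had few peaks within their span. This comparison was added after the data were seen. Of 281 annotated ribosomal protein pseudogenes, 2.14% had a peak within their span in OE, 3.56% in mi8, 3.91% in HP109 and 2.14% in LMP8. Over all 9319 pseudogenes the shares were 6.38, 9.09, 8.94 and 7.38%. The span lengths of both sets were not compared, and a longer span can hold a peak more easily. By the measure used for the genes, a peak within 1000 bp of either end, the ribosomal protein pseudogenes were near all pseudogenes, with 10.3% against 10.8% in OE, 15.7% against 15.2% in mi8, 17.1% against 15.1% in HP109 and 12.5% against 12.8% in LMP8. The sources used here do not say how reads that match both a gene and its copies were treated, so peaks over exons are less certain than peaks over promoters.

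The labelled cell type was checked at marker genes. Of 10 dendritic cell markers 8 had an end peak in OE, 10 in mi8, 9 in HP109 and 9 in LMP8; Ccr7 had none in OE, HP109 and LMP8 and Ciita none in OE. All 5 macrophage markers had one in every list. Markers of granulocytes and mast cells had an end peak at 1 of 7 genes in OE, 5 in mi8, 6 in HP109 and 4 in LMP8, lymphoid markers at 1 of 5 in OE, 3 in mi8, 4 in HP109 and 3 in LMP8, and erythroid markers at 1 of 3, 2, 3 and 2. The part of these cell types in the values above was not tested.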

How the data were processed

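ATAC-seq peak lists of 4 vectors in mouse dendritic cells were used. Per the submitters' processing notes, the tools were BWA, Picard and MACS2 and the build mm10; the sources used here give no versions, thresholds or read shifting. Per the labels, the 2 libraries of a vector share 1 list, called against the input of the mi8 vector. In the deposited files the score restates the −log10 q, multiplied by 10. The authors' fold is a ratio of summit pileup to local background. The authors' −log10 p and −log10 q rate how far a summit exceeds that background.

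A summit's pileup was solved for from its fold, a ratio in which 1 is added to pileup and background alike, and from its p, a Poisson probability; a whole number fitted within 0.001 for 100% of peaks in each list. Peaks were joined to gene ends (window 1000 bp, overlap of at least 1 bp) from a RefSeq table of GRCm38.p6, and to starts from its promoter table. Regions were merged over the 4 lists. The steps were tested on simulated lists. The names of the lists say that they were downsampled, but the sources used here do not give to what depth or how the 2 libraries were pooled. Read totals are unknown, so depth enters only as the recovered background, and q values and numbers of peaks are not matched between lists. Alternatives were windows, stricter and equal numbers of peaks, and other gene sets. The genes and lists were chosen with earlier results of these data known. Named genes were those whose state differed between lists, the 5 highest and 5 lowest by mean percentile, the stalk, Diamond-Blackfan and paralog genes, and those with most end peaks; genes at the ends of the ratios, and others named beside a count, were added after their values were seen. X-linked genes and Rps3a1 fall outside the rule. Some single genes are not reported here, although counts and medians include them. Python 3.11.15, numpy 2.4.6, pandas 2.3.3, scipy 1.17.1 and matplotlib 3.10.9 were used.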

Additional observations from a re-analysis of the deposited data

How the results depend on the processing

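Of 180 values, 22 results under their alternatives, 169 stayed within the limit set for a move and 11 moved. Genes open at an end in mi8 but not in OE numbered 2 with windows of 500 bp and 0 with equal numbers of peaks (108506 per list), against 1. Those in mi8 and not LMP8 numbered 0 with equal numbers, against 1. Genes with a peak at the far end only numbered 1 in OE with windows of 500 or 2500 bp or without the restricted paralogs, against 2, and 0 in mi8, HP109 and LMP8 without the paralogs, against 1 each. With the whole gene span as the window, an alternative chosen after seeing the data, the median percentile was 66.6 in mi8, against 73.3, and 67.9 in HP109, against 71.9. It was lower in the other lists too, at 69.2 in OE, against 74.9, and 67.9 in LMP8, against 74.0, which stayed within the limit. The causes were not tested.

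No paired analysis was possible because the 2 libraries of a vector share 1 list, and leaving out a library was not possible for the same reason. A missing peak was not called at the depth of its list, which is not the same as closed chromatin.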
